A study of Mus musculus with 6 samples.

Results

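The genes described here encode the positive factors of the circadian clock and the DEC repressors that share their binding sites: Arntl, whose protein is BMAL1, Clock, Npas2, Bhlhe40, whose protein is DEC1, and Bhlhe41, whose protein is DEC2. They were chosen by gene symbol, and all 5 were found among the 15423 genes of the count table and passed the filter on low counts. RNA-seq of hippocampal tissue was available from 3 CTR mice and 3 SD mice, all of strain C57BL/6J with no transgene or mutation named. CTR mice, numbered 1, 2 and 5, were bred and kept under 12 h of light and 12 h of dark. SD mice, numbered 2, 5 and 6, came from breeding pairs held under 8 h of light and 8 h of dark at 100 lux through gestation, and stayed in that cycle until day 42 after birth. The light level of the CTR mice, the sex and litter of each mouse, the age at dissection and the clock time of dissection were not stated in the sources used. A difference in the level of a rhythmic gene and a difference in its phase at dissection therefore cannot be told apart.

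BMAL1 pairs with CLOCK, and in forebrain also with the CLOCK relative NPAS2, and the pair binds the E-box motif to switch on Per and Cry genes, the REV-ERB receptor genes Nr1d1 and Nr1d2, the output gene Dbp and both DEC genes. PER and CRY proteins then block the pair, while DEC1 and DEC2 repress by binding E-boxes themselves and by contacting BMAL1. REV-ERB proteins repress and ROR proteins activate the Arntl gene through ROR elements, which puts Arntl transcription opposite in phase to that of E-box genes. In most tissues Clock message varies little over the day, whereas Arntl, Npas2, Nr1d1, Dbp and Per2 messages cycle.

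The promoter windows are shown because they can carry the motifs through which this loop is wired. RefSeq windows of 300 bases, from 250 before to 50 after a transcript start on GRCm38.p6, were found for 4 of the 5 genes, with 7 windows in all, and none was given for Bhlhe40. The letters searched on both strands were CACGTG for the E-box, CACGTT for the E-prime box, AGTAGGTNA for the ROR element, TTANGTAA for the D-box and TGACGTCA for the cyclic AMP element. Base 1 is the first transcribed base, and the base before it is -1. Capitals mark the ROR elements in the Arntl window at chr7:113207261-113207560 on the plus strand and the E-box in the Bhlhe41 window at chr6:145865371-145865670 on the minus strand, each written in the direction of transcription.
Arntl: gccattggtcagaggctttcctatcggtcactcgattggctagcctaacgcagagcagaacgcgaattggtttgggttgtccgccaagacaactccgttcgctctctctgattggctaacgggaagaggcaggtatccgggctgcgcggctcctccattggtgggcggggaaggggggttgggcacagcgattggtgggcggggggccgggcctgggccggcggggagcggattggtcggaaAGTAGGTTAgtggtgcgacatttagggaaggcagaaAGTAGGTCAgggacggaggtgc
Bhlhe41: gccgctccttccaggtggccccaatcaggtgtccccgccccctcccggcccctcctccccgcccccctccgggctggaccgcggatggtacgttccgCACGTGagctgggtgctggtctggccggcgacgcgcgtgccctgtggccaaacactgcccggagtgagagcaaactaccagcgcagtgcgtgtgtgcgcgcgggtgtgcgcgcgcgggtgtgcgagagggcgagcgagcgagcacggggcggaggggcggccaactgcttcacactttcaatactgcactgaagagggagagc
In the Arntl window the ROR element AGTAGGTTA lay at -8 to 1 and AGTAGGTCA at 29 to 37, and the 2 copies did not overlap. Of all 32851 RefSeq windows, 0.591% held a ROR element. The Bhlhe41 E-box lay at -153 to -148, a motif present in 7.15% of all windows. None of the 5 motifs was found in the 3 Clock windows or the Npas2 window, which says only that these letters are not in those bases. Of the 14 other loop genes considered below, 13 had a window, and the windows of 4 of them, Per1, Cry1, Ciart and Tef, held the same E-box letters. Ciart, which encodes a repressor of the CLOCK pair, held 3 copies. No E-box was found in the windows of Nr1d1, Nr1d2 or Dbp. The E-prime box was found for 4 loop genes, Cry1, Cry2, Nr1d1 and Rorb, and the ROR element for Nfil3. D-boxes were found for Per3 and Rorb, and the cyclic AMP element for Hlf. Of all 27025 RefSeq genes with a window, 8.093% held an E-box, 5.439% an E-prime box and 0.699% a ROR element. The D-box was held by 2.72% of them and the cyclic AMP element by 2.031%. These motifs were chosen after the windows were seen, so the shares are description only.

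The genes differed widely in size and in level. On GRCm38 with GENCODE M21, Arntl lies at chr7:113207465-113314126 on the plus strand, Clock at chr5:76209868-76304792 on the minus strand and Npas2 at chr1:39193731-39363236 on the plus strand. The DEC genes are compact and both lie on chromosome 6, Bhlhe40 at chr6:108660629-108666925 on the plus strand and Bhlhe41 at chr6:145858243-145865558 on the minus strand. Counts spanned from 564 for Arntl in CTR 1 to 4857 for Clock in CTR 5, and the counting error alone was 1.43% to 4.21% of a count. Divided by the summed exon length, the level was highest for Bhlhe40, at 36.8 ± 2.35 CPM per kb in CTR mice and 34.2 ± 0.772 CPM per kb in SD mice (mean ± SD, n = 3). Clock followed with 15.5 ± 0.895 CPM per kb in CTR mice and 14.4 ± 0.618 CPM per kb in SD mice. Over the 6 mice the length-scaled levels of Bhlhe41 (6.09 to 10.1 CPM per kb) overlapped with those of Arntl (7.96 to 9.74 CPM per kb). The order of Bhlhe41 and Arntl was not resolved. Npas2 (5.78 to 7.49 CPM per kb) stood below both of them in every mouse, though its range overlapped with that of Bhlhe41. Exons of Bhlhe41 overlap the unnamed model Gm43909 over 855 bases and those of Bhlhe40 overlap 0610040F04Rik over 118 bases, both on the opposite strand. The counting used strand, and 0610040F04Rik had only 10 to 25 counts per mouse.

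To ask whether the altered light cycle changed the message of these factors, SD mice were compared with CTR mice by the quasi-likelihood test of edgeR over all 15345 genes kept. Levels below are CPM, the counts of a gene scaled to the library size with TMM factors, and fold changes are log2 of SD over CTR. Npas2 and Bhlhe41 were lower in SD mice at an unadjusted p of at most 0.05, with mean CPM at 0.848 and 0.800 of the CTR mean, while Arntl, Clock and Bhlhe40 were not past that threshold in either direction. None of the 5 was called at the cutoffs of the study, which ask for that p together with a log2 fold change of 0.58 or more in either direction and called 2.98% of all genes tested (2.1% higher and 0.88% lower in SD mice). With DESeq2 the same cutoffs also called none of the 5, against 2.05% of genes. An unadjusted p of at most 0.05 with a lower level in SD mice was reached by 2 of 5, against 3.68% of all genes tested and 8.32% in either direction. After Benjamini-Hochberg adjustment 0 of 5 stayed under 0.05 with edgeR, as did 0% of all genes tested. With DESeq2 0 of 5 stayed under an adjusted p of 0.05 against 0.386% of genes, and Npas2 and Bhlhe41 again reached an unadjusted p of at most 0.05, against 7.61% of genes in either direction and 3.55% lower. The fold change was below 0 for 4 of 5, against 49.6% of genes tested, with a median of -0.10 beside 0.0015 for all genes. The 3 SD mice lay below the 3 CTR mice for 1 of 5, against 6.2% of genes tested, and above them for 0 of 5, against 6.11%. Groups without overlap in either direction made up 12.3% of genes.

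**Figure D1:**
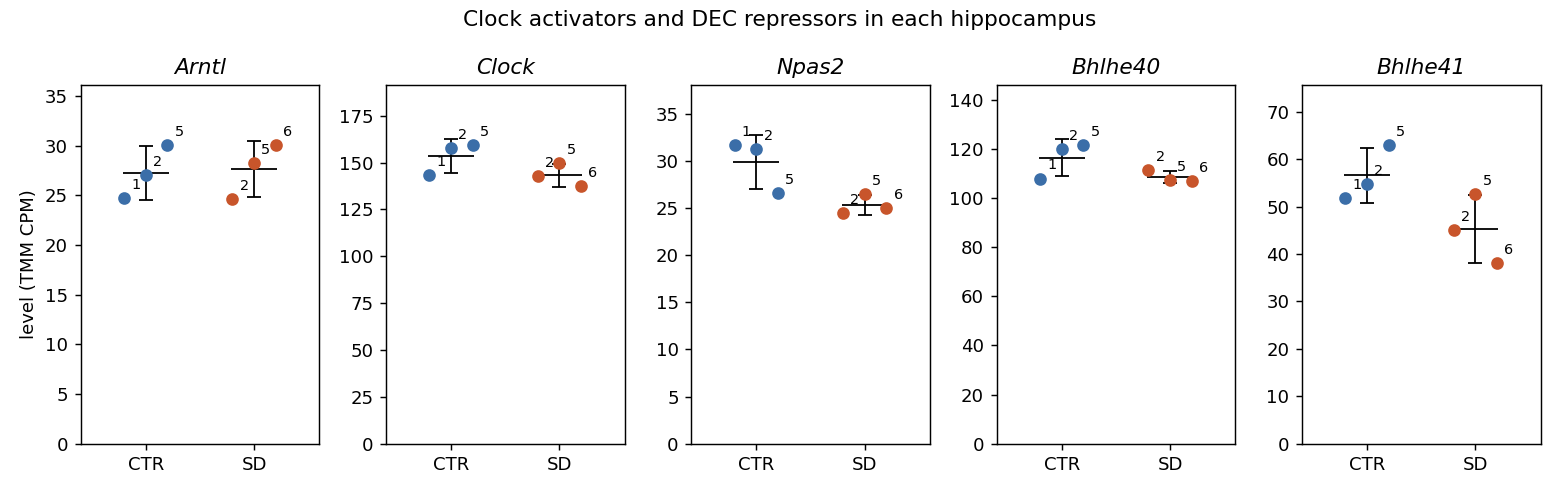
Level of each gene in each mouse, in TMM-scaled CPM (y axis, from 0), for CTR mice (blue) and SD mice (orange), with mouse numbers beside the points and black bars for mean ± SD of 3 mice. Npas2 is the gene whose groups do not overlap, by the small gap between 26.6 in CTR 5 and 26.5 in SD 5, and Bhlhe41 overlaps through SD 5 at 52.6.

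Arntl, whose protein pairs with both CLOCK and NPAS2, had 564, 655 and 915 counts in CTR 1, 2 and 5 and 634, 834 and 1040 counts in SD 2, 5 and 6. These counts correspond to 24.7, 27.0 and 30.1 CPM in CTR mice and to 24.6, 28.2 and 30.1 CPM in SD mice. The groups covered nearly the same range. The means were 27.3 ± 2.68 and 27.6 ± 2.79 CPM (SD, n = 3), with a log2 fold change of 0.02 (SE 0.11, edgeR adjusted p = 0.98). The 95% interval of the log2 fold change ran from -0.23 to 0.27, that is from 0.854 to 1.204 times the CTR level, so smaller changes in Arntl were not detectable with these mice. The sign was not fixed either, since the log2 fold change was -0.049 without CTR 1 and -0.048 without SD 6.

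Clock, which encodes the histone acetyltransferase partner of BMAL1, was measured at 143, 158 and 159.5 CPM in CTR 1, 2 and 5. In SD 2, 5 and 6 it stood at 143, 149.7 and 138 CPM. The lowest CTR mouse lay inside the SD range, so the groups overlapped. The means of 153 ± 8.88 and 143 ± 6.14 CPM gave a log2 fold change of -0.10 (SE 0.080, 95% interval -0.28 to 0.078, edgeR adjusted p = 0.79).

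Npas2, the CLOCK relative of the forebrain, had 31.7, 31.3 and 26.6 CPM in CTR 1, 2 and 5 and 24.5, 26.5 and 25.0 CPM in SD 2, 5 and 6. All SD mice were lower than all CTR mice, but CTR 5 and SD 5 were separated by less than the spread within either group, and the separation was lost with DESeq2 size factors. The means were 29.9 ± 2.83 and 25.3 ± 1.06 CPM. The log2 fold change was -0.24 (SE 0.10, 95% interval -0.46 to -0.015, edgeR adjusted p = 0.58), and DESeq2 gave an adjusted p of 0.60. Npas2 was past an unadjusted p of 0.05 in 1 of the 6 fits that left out a mouse, that without CTR 5. That fit holds only mice of male pattern and gave a log2 fold change of -0.32 and an edgeR adjusted p of 0.19. In it 14.2% of all genes were past that unadjusted p. The log2 fold change was -0.20 without CTR 1, -0.20 without CTR 2, -0.21 without SD 2, -0.27 without SD 5 and -0.23 without SD 6, none of them past it.

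Bhlhe40, whose protein DEC1 also responds to neuronal activity and hypoxia, showed 108, 119.7 and 122 CPM in CTR 1, 2 and 5 and 111, 107 and 107 CPM in SD 2, 5 and 6. CTR 2 and CTR 5 stood above every SD mouse and CTR 1 lay within the SD range. The means were 116 ± 7.44 and 108 ± 2.45 CPM, and the log2 fold change was -0.10 (SE 0.078, 95% interval -0.28 to 0.071, edgeR adjusted p = 0.77).

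Bhlhe41, whose protein DEC2 is known in human from short sleep, gave 51.9, 54.8 and 63.0 CPM in CTR 1, 2 and 5 and 45.1, 52.6 and 38.1 CPM in SD 2, 5 and 6. The lowest values were those of SD 6 and SD 2, and SD 5 was above CTR 1. The means of 56.6 ± 5.78 and 45.3 ± 7.25 CPM gave the largest fold change of the 5, -0.32 (SE 0.12, 95% interval -0.60 to -0.047, edgeR adjusted p = 0.56), and DESeq2 gave an adjusted p of 0.43. The difference depended on single mice. The log2 fold change stayed past an unadjusted p of 0.05 without CTR 1 (-0.38), without CTR 2 (-0.35) and without SD 5 (-0.45). It was no longer past that p without CTR 5 (-0.24), without SD 2 (-0.32) or without SD 6 (-0.21).

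**Figure D2:**
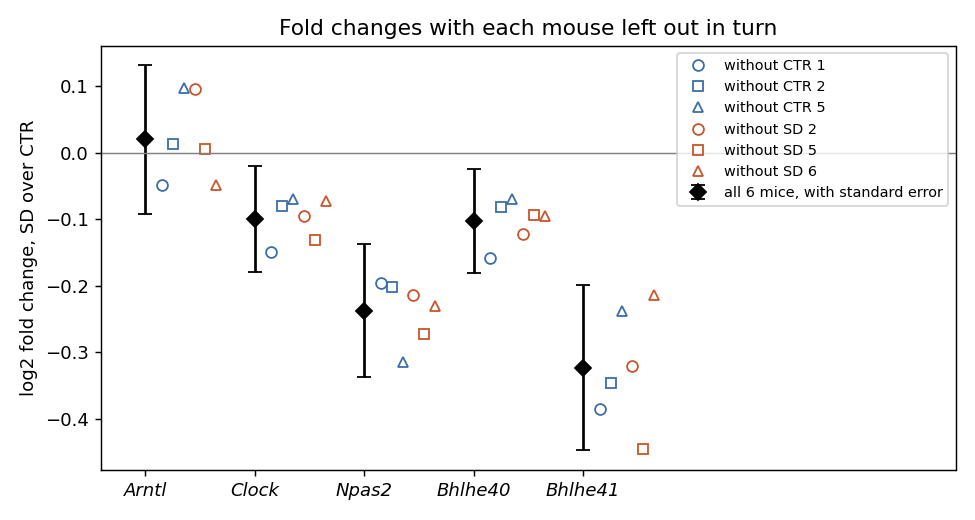
Log2 fold change of SD over CTR (y axis) for each gene, fitted over all 6 mice (black diamonds, bars are standard errors) and with each mouse left out in turn (open symbols, blue for CTR and orange for SD). Npas2, Clock, Bhlhe40 and Bhlhe41 stay below 0 in every fit, Bhlhe41 ranges from -0.45 to -0.21, and Arntl lies on both sides of 0.

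Pairs of these genes were then set against each other within each mouse, as a difference of log2 CPM, which does not depend on the scaling between libraries. In all 6 ratios examined the groups overlapped, and with 3 against 3 mice the exact permutation test (two-sided, 20 assignments) cannot give p below 0.1. Arntl over Clock was -2.53, -2.54 and -2.41 in CTR 1, 2 and 5 and -2.53, -2.40 and -2.19 in SD 2, 5 and 6, a difference of 0.12 (exact p = 0.3, adjusted over 6 ratios p = 0.4). It was 0.20 without SD 2 and 0.024 without SD 6. Npas2 over Clock, the balance of the alternative BMAL1 partners, was -2.17, -2.33 and -2.58 in CTR mice and -2.54, -2.49 and -2.46 in SD mice, a difference of -0.14 (exact p = 0.4, adjusted p = 0.4). CTR 5, the mouse of female pattern, was the lowest of all 6 mice in this ratio. Without it the difference was -0.25 and the groups did not overlap, as was so for 30.6% of all single genes. Without CTR 1 the difference was -0.043. Bhlhe40 over Bhlhe41 was 1.06, 1.13 and 0.95 in CTR mice and 1.30, 1.03 and 1.49 in SD mice, a difference of 0.23 (exact p = 0.3, adjusted p = 0.4), so the DEC genes were not shown to differ in their response. It was 0.35 without SD 5 and 0.12 without SD 6.

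Arntl was also set against genes of the opposite phase of the loop. Arntl over Per2 was -1.25, -0.97 and -0.61 in CTR 1, 2 and 5 and -0.70, -0.67 and -0.52 in SD 2, 5 and 6. Arntl over Nr1d1, the REV-ERB alpha gene, was -1.95, -1.67 and -1.26 in CTR mice and -1.48, -1.35 and -1.08 in SD mice. Arntl over Dbp was -1.91, -1.66 and -1.10 in CTR mice and -1.66, -1.25 and -0.80 in SD mice. The mean ratio was higher in SD mice in all 3 cases, by 0.31 for Per2, 0.32 for Nr1d1 and 0.32 for Dbp (exact p = 0.3, 0.3 and 0.4, each adjusted p = 0.4). CTR 5 reached into the SD range each time. Without CTR 5, that is among mice of male pattern, the differences were 0.48, 0.50 and 0.55. No ratio then overlapped, in a setting where 30.6% of all single genes did not overlap either. For Dbp the groups were apart only by the small gap between -1.661 in CTR 2 and -1.657 in SD 2. Without CTR 1 the differences were 0.16, 0.16 and 0.14. For Nr1d1 and Dbp they were 0.21 and 0.10 without SD 6, and for Dbp 0.53 without SD 2. Within each group the mouse with the most Arntl, CTR 5 or SD 6, had the lowest level of Nr1d1 and of Dbp. Per2 was also lowest in CTR 5 among CTR mice, at 45.8 CPM, but among SD mice it was lowest in SD 2, the mouse with the least Arntl, at 39.9 CPM against 43.1 CPM in SD 6. For Dbp this was 64.4 CPM in CTR 5 against 93.3 and 85.6 CPM in CTR 1 and 2, and 52.6 CPM in SD 6 against 77.7 and 67.3 CPM in SD 2 and 5. The 3 ratios share the Arntl values and are not independent of each other.

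**Figure D3:**
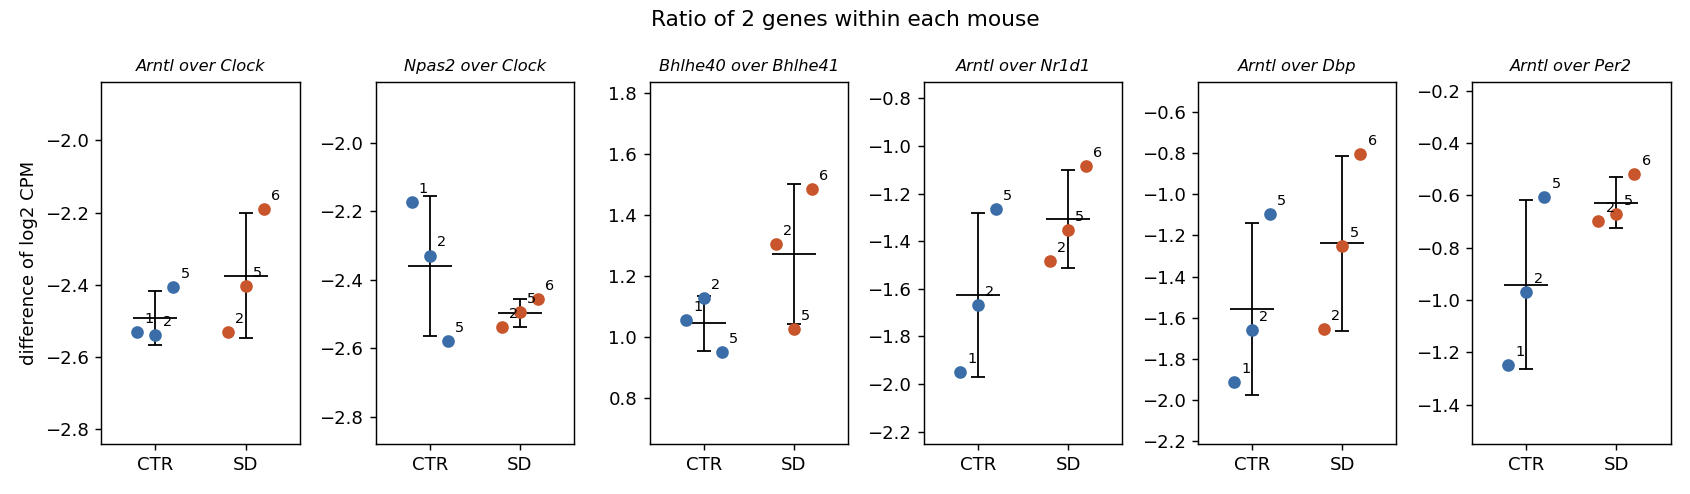
Ratio of 2 genes within each mouse, as a difference of log2 CPM (y axes, each with its own range), for CTR mice (blue) and SD mice (orange), with mouse numbers and mean ± SD of 3 mice. The groups overlap in all 6 panels, and CTR 5 lies within or next to the SD range in the Npas2 over Clock panel and in the panels of Arntl over Nr1d1, Dbp and Per2.

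The 14 other loop genes, from lists of E-box repressors, clock nuclear receptors and PAR bZIP output factors, are given beside the 5 without a test between the sets. Of the 14, 13 had a fold change below 0 with a median of -0.28, against 49.6% of all genes tested below 0. At an unadjusted p of at most 0.05, 9 were lower, against 3.68% of genes, and 1 was higher. At the cutoffs of the study 1 was called, against 2.98% of genes. The 3 SD mice lay below the 3 CTR mice for 9 of the 14, against 6.2% of genes, and above them for 0, against 6.11%. Among the 6 E-box repressors, fold changes ran from -0.30 to -0.04 and 3 were past the unadjusted threshold, all lower. Per2, a PERIOD repressor of the pair, stood at -0.30 (edgeR adjusted p = 0.55) and Per3 at -0.27 (edgeR adjusted p = 0.56). Per1 was at -0.04 (edgeR adjusted p = 0.94). The 4 nuclear receptors reported here, which act on the ROR elements of Arntl, were lower at an unadjusted p of at most 0.05. Nr1d1 was 84.6 ± 11.8 CPM in CTR mice and 68.3 ± 4.21 CPM in SD mice (log2 fold change -0.31, edgeR adjusted p = 0.55). Rora, an activator of Arntl, was called, at 73.4, 119.99 and 68.1 CPM in CTR 1, 2 and 5 and 55.8, 58.6 and 50.2 CPM in SD 2, 5 and 6 (log2 fold change -0.67, edgeR adjusted p = 0.51, DESeq2 adjusted p = 0.038). CTR 2 stood far above the rest, and without it none of the 4 receptors was called, while without CTR 5 the number called was 2. Rora is also on the list of thalamic markers, whose sum, Rora included, was highest in CTR 2 at 403 CPM. The part of thalamic tissue in the Rora value was not tested. Rorb, at -0.50 (edgeR adjusted p = 0.51), is likewise on the list of neocortical markers. Of these 4 of 6, Rorb itself included, were lower at an unadjusted p of at most 0.05, and the part of neocortical tissue was not tested. Among the output factors, which bind D-box sites, Hlf was at -0.38 (edgeR adjusted p = 0.51) and Nfil3, a repressor of the same sites, at 0.48 (edgeR adjusted p = 0.55). Without SD 2, 1 of the 4 output factors was called. Tef was at -0.21 (edgeR adjusted p = 0.55) and Dbp, not past the unadjusted threshold, at -0.30 (edgeR adjusted p = 0.65).

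**Figure D4:**
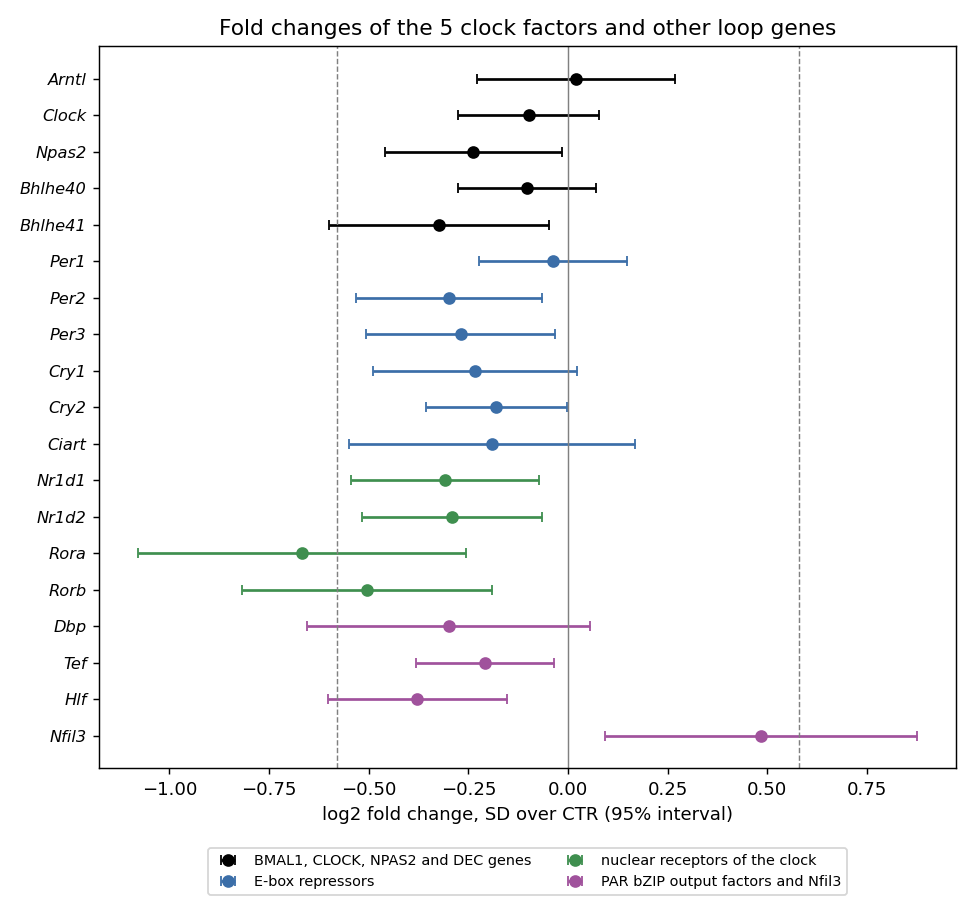
Log2 fold change of SD over CTR (x axis) with 95% intervals for the 5 genes (black), 6 E-box repressors (blue), 4 nuclear receptors (green) and 4 output factors (purple). Dashed lines mark the cutoff of 0.58 in each direction. Arntl and Nfil3 lie above 0 and Rora lies past the cutoff.

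No gene among the other partners and relatives examined was called at the cutoffs of the study. The 8 clock kinases and F-box proteins, which set the lifetime of PER and CRY proteins, centred on -0.063 (median log2 fold change). The smallest p-values belonged to Fbxl21 (-0.30, edgeR adjusted p = 0.65) and Fbxw11 (0.13, edgeR adjusted p = 0.67). The 16 cofactors of CLOCK and BMAL1 had a median of -0.038, with 1 gene higher and 1 lower at an unadjusted p of at most 0.05. Kmt2a, the H3K4 methyltransferase MLL1 that CLOCK recruits, was lower in all SD mice, with 214, 177 and 196 CPM in CTR 1, 2 and 5 against 146, 156 and 149.6 CPM in SD 2, 5 and 6. Its log2 fold change was -0.38 (edgeR adjusted p = 0.51, DESeq2 adjusted p = 0.025). Nono, an RNA-binding partner of PER proteins, was the one higher, at 0.22 (edgeR adjusted p = 0.58). Of the other bHLH-PAS factors, the protein family of BMAL1, CLOCK and NPAS2, 14 were tested, with a median of -0.10 and 2 lower at an unadjusted p of at most 0.05. These were Ahr, the dioxin receptor, at -0.28 (edgeR adjusted p = 0.55), and Ncoa2, a steroid receptor coactivator, at -0.19 (edgeR adjusted p = 0.56). Of the Hes and Hey factors, which like DEC1 and DEC2 carry an Orange domain, 7 were tested, with a median of 0.12. Hes6, at 0.32 (edgeR adjusted p = 0.54), was the one past the unadjusted threshold, and Hes5 stood at 0.26 (edgeR adjusted p = 0.64). With a mouse left out, 1 Hes or Hey gene was called without SD 2 and 1 bHLH-PAS gene without CTR 2.

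Genes whose levels followed each member most closely over the 6 mice were ranked among 10098 genes of at least 10 CPM by the mean absolute difference of centred log2 CPM. The nearest to Arntl were Hsdl2, Eid2b and Mif4gd, with a difference of 0.025 for Hsdl2 beside a range of 0.29 for Arntl itself. Nearest to Clock were Ap5m1, Rragc and Ppp1r21, at 0.013 for Ap5m1 beside a range of 0.21. The genes closest to Npas2 were Rasa3, Tbc1d8 and Slc35e2, at 0.018 to 0.022 beside a range of 0.37. For Bhlhe40 they were Ccdc149, Pptc7 and the immediate early gene Egr3, from 0.015 to 0.019 beside a range of 0.19. For Bhlhe41 they were Cdh19, Prpf39 and Smad9, at 0.055 to 0.070 beside a range of 0.72. Among the 5 genes themselves the closest pair was Clock and Bhlhe40, at 0.030, and the farthest was Arntl and Npas2, at 0.19. These ranks describe 6 mice and were not tested.

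Total counts were 23300710 to 30035148 in CTR mice and 25755316 to 34447082 in SD mice. Xist was counted 30044 times in CTR 5 and at most 20 times in the other mice, and the Y-linked Ddx3y 10 times in CTR 5 and 1652 to 3090 times in the others, so CTR 5 was the only library with the pattern of a female. CTR 1 held 1.84% of its counts in the ribosomal RNA gene Rn45s, against 0.164% to 0.231% in the others. The 11 markers of hippocampal principal neurons summed to 1372 to 1427 CPM in CTR mice and 1334 to 1432 CPM in SD mice with none called, but markers of neighbouring tissue varied. The 8 choroid plexus markers summed to 415 to 4602 CPM in CTR mice and 3938 to 11036 CPM in SD mice. At the cutoffs of the study 7 were called higher, or 4 with DESeq2, 3 without SD 5 and 2 without SD 6. The 8 thalamic markers, which include Rora, summed to 188 to 403 CPM in CTR mice and 151 to 192 CPM in SD mice. Of these 6 were called lower, or 4 with DESeq2, 2 without CTR 2 and 3 without SD 6. The 6 neocortical markers, which include Rorb, summed to 199 to 253 CPM in CTR mice and 169 to 199.6 CPM in SD mice, with a median log2 fold change of -0.39. Of these 4 were lower at an unadjusted p of at most 0.05 and 1 was called, or 0 without CTR 2 or SD 2, 3 without CTR 5 and 2 without SD 5. The 5 markers of the medial habenula summed to 55.9 to 126 CPM in CTR mice, highest in CTR 5, and 54.6 to 62.5 CPM in SD mice, with 0 called, or 1 without CTR 1 and 2 without CTR 2 or CTR 5. The 5 oligodendrocyte markers summed to 5218 to 6905 CPM in CTR mice and 6794 to 8361 CPM in SD mice, with a median log2 fold change of 0.44. All 5 were higher at an unadjusted p of at most 0.05 and 1 was called, or 0 without CTR 1 or SD 6 and 3 without CTR 2. The 5 ependymal markers summed to 24.7 to 49.4 CPM in CTR mice and 42.7 to 54.6 CPM in SD mice, with 2 higher at that p and 1 called, or 5 without CTR 5 and 2 without SD 2. The 6 striatal markers summed to 103 to 113 CPM and 131 to 145 CPM with 1 called higher, or 0 without CTR 2 or SD 6. The 3 hypothalamic markers tested summed to 2.52 to 4.63 CPM and 4.72 to 23.2 CPM with 2 called higher, or 1 without CTR 1 or SD 2. Markers of astrocytes (5 genes, 1531 to 1931 CPM and 1728 to 1888 CPM), microglia (4 genes, 202 to 249.95 CPM and 224 to 238 CPM) and endothelium (5 genes, 109 to 125 CPM and 77.8 to 119 CPM) had none called and none past an unadjusted p of 0.05. No listed marker that was tested was at 0 counts over the mice, and the part of these differences in the values of Npas2, Bhlhe41 or the loop genes was not tested. In bulk tissue, fewer cells of a type and less RNA per cell cannot be told apart.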

How the data were processed

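The 5 genes and the gene lists were chosen with earlier results of these data known. Polyadenylated RNA of 6 mice was sequenced on an Illumina instrument. Before deposit, reads were trimmed (Trim Galore), aligned to mm10 (Hisat2) and assigned to genes by featureCounts in its strand-specific mode, multi-mapping reads being kept, so genes with near-identical copies are uncertain. SAMtools, Picard and DESeq2 are named in the submitters' processing notes. Their versions and the annotation counted against were not stated in the sources used. The study describes dissected hippocampi, whereas the extraction protocol of the labels speaks of cells and spheroids, a conflict that was not resolved. The authors deposited raw counts of 15423 genes, with a total of 40 or more per gene, beside their own DESeq2 fold changes and p-values, which were not used.

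SD was set against CTR without covariate in R 4.3.3 by the edgeR 4.0.16 quasi-likelihood test (glmQLFit, glmQLFTest), after filterByExpr, which kept 15345 genes, and TMM scaling. The steps were tested on simulated data. Standard errors and intervals are from the same fit. P-values were adjusted by Benjamini-Hochberg over all genes. For ratios, CPM was put on a log2 scale with prior count 2. Litters were not stated, and p-values cover the spread between these mice alone. Named genes were the 5 members, the 3 genes of closest pattern to each (unnamed gene models left out), and from each list the called genes or, with none, the 2 of smallest p. A listed gene that is not reported here was left out of the list counts. Per1, Nr1d1, Dbp and others of the loop were added as listed members of their range, and motifs were chosen after the windows were seen. Alternatives were DESeq2 1.42.0, DESeq2 and upper-quartile size factors, no filter, a mean of at least 50 counts, a fold cutoff of 0.3, a prior count of 0.5, each mouse left out, and the replicate number as a block.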

Additional observations from a re-analysis of the deposited data

How the results depend on the processing

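The fold changes of Clock, Npas2, Bhlhe40 and Bhlhe41 were below 0 under every alternative run. In the replicate block fit, CTR 1 and SD 6 stand alone in their blocks. The SD effect there rests on the mice numbered 2 and 5. In that fit the fold change of Arntl was -0.11, against 0.02 without the block. With a mouse left out it ranged from -0.049 to 0.097 for Arntl, being -0.049 without CTR 1 and -0.048 without SD 6, from -0.15 to -0.07 for Clock, from -0.32 to -0.20 for Npas2, from -0.16 to -0.07 for Bhlhe40 and from -0.45 to -0.21 for Bhlhe41. The number of members at an unadjusted p of at most 0.05 was 2, against 8.32% of all genes in either direction. It was 1 with the replicate block, against 4.50% of genes. With a mouse left out it was 0 to 1, against 3.93% of genes without SD 6 to 14.2% without CTR 5. The count was 0 without SD 2 (7.98% of genes) or without SD 6. With a fold cutoff of 0.3, 1 member was called, Bhlhe41, against 5.82% of all genes. Non-overlapping groups numbered 1, and 0 with DESeq2 size factors against 12.4% of all genes. With a mouse left out they numbered 1 to 4, being 4 without CTR 1 (20.7% of all genes), 3 without SD 5 (21%) and 2 without SD 2 (24.3%). The number was 1 without CTR 2 (23.3%), without CTR 5 (30.6%) or without SD 6 (18.8%). Of the clock genes on the lists of repressors, receptors, output factors, kinases and F-box proteins, 1 was called, 0 to 2 with a mouse left out, 0 without CTR 2 and 2 without CTR 5 or without SD 2. Other causes of these changes were not tested.

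Numbers 2 and 5 occur in both groups but the labels do not say that they mark a shared litter or day. Deviations from group means correlated at 0.236 for number 2 and 0.130 for number 5 over 14055 genes, from 2 pairs only, and CTR 1 and SD 6, which share no number, correlated at 0.144. At the cutoffs of the study the block, whose SD effect rests on those 2 pairs, gave 315 called genes, against 457 without it. DESeq2 called 316, and a mean of at least 50 counts left 265.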

Other observations

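3 further lists bear on stimuli to which DEC1 or the clock is known to respond. Of 14 immediate early genes, which mark recent neuronal activity, none was called with all 6 mice and none was past an unadjusted p of 0.05, while 1 was called without CTR 1 and 2 without CTR 2. The smallest p was that of Nr4a2, with 62.8, 99.9 and 75.7 CPM in CTR 1, 2 and 5 and 37.6, 69.4 and 68.5 CPM in SD 2, 5 and 6 (log2 fold change -0.44, edgeR adjusted p = 0.64), followed by Fosl2 at -0.14 (edgeR adjusted p = 0.73). CTR 2 was highest in this list, with 803 CPM in sum against 500.05 to 656 CPM in the other mice. Of 15 hypoxia response genes 1 was called, Car12, a carbonic anhydrase, at 48.9, 30.1 and 60.6 CPM in CTR 1, 2 and 5 and 58.9, 103 and 99.9 CPM in SD 2, 5 and 6 (log2 fold change 0.90, edgeR adjusted p = 0.51). Its lowest and highest mice were those with the least and the most summed choroid plexus markers, and the part of that tissue was not tested. Of 11 glucocorticoid response genes 1 was called, Plin4, a lipid droplet protein. Plin4 stood at 13.6 ± 4.57 CPM in CTR mice and 4.82 ± 1.28 CPM in SD mice, and the groups did not overlap. With a log2 fold change of -1.50, Plin4 had an edgeR adjusted p of 0.51 but a DESeq2 adjusted p of 1.03e-05. The list had a median of 0.033 and 4 of its 11 genes were below 0. Ddit4, at 0.24 (edgeR adjusted p = 0.55), was the one higher at an unadjusted p of at most 0.05. Fkbp5, a feedback regulator of the receptor, stood at 0.03. Fkbp5 and Ddit4 were named after their values were seen.

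Tbc1d8, one of the 3 genes closest in pattern to Npas2, is also its next RefSeq gene on chromosome 1, from 39371495 to 39478778, with a gap of 8258 bases and 0 genes between. Its level was 17.6 CPM in CTR mice and 14.95 CPM in SD mice (log2 fold change -0.23). Eid2b, which lies on the chromosome of Arntl, is 84927335 bases away. This neighbour was noticed after the ranking, and nothing about it was tested.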
